A study of Mus musculus with 6 samples.

Results

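The integrated stress response was followed through 10 genes, Atf4, Atf5, Ddit3, Trib3, Chac1, Asns, Sesn2, Psat1, Eif2ak3 and Ppp1r15a, taken by symbol from the 16547 genes of the deposited table. All 10 were found and all 10 were above 0 in every library. RNA came from pancreatic islets of C57BL/6 mice aged 11 to 12 weeks. The 3 control libraries (WT) were labelled Kcnj11 fl/fl, a floxed allele of the gene whose product, Kir6.2, forms the pore of KATP channels. The 3 knockout libraries (bKO) were labelled βKcnj11-/-, a deletion of that gene in beta cells. What drives the deletion, and whether each library is a separate animal, is not given in the sources used here, so the p-values measure the spread between these libraries, which may in part be technical. Values of a group are given in the order of replicates 1, 2 and 3 throughout. All islets were picked by hand and kept in RPMI culture medium for 2 days before RNA was extracted.

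The integrated stress response is a shared answer of cells to unfolded protein in the endoplasmic reticulum, amino acid shortage, double-stranded RNA and haem shortage. Each stress activates a kinase that phosphorylates the initiation factor eIF2 alpha, which slows translation of most messages and favours translation of the message of Atf4, a bZIP transcription factor. ATF4 and its partners then switch on genes of amino acid supply, redox control and feedback, and prolonged signalling brings in the pro-apoptotic factor CHOP, the product of Ddit3. The beta cell makes very large amounts of proinsulin, and loss of the kinase PERK, the product of Eif2ak3, is known to cause early diabetes in mice and in people. ATF4 and PERK activity are set largely by translation and phosphorylation, which RNA levels do not report.

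ATF4 binds, as a dimer with C/EBP proteins, a composite element that can be written TGATGNAA. The element is shown here for the members that hold it, since it is the sequence the factor is known to bind, together with a cAMP response element, TGACGTCA, in the start region of Ppp1r15a. Windows of 250 bases before to 50 bases after each RefSeq start (GRCm38.p6) were searched on both strands, and 10 of 10 members matched by gene ID. Capitals mark the motif, each sequence runs 5′ to 3′ on the strand of its gene, and positions count from the RefSeq start.
Asns: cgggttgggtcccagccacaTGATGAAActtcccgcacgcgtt
Chac1: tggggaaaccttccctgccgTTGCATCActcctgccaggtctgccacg
Trib3: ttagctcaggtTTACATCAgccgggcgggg
Ppp1r15a: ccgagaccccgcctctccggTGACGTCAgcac
The Asns stretch lies at chr6:7693210-7693252 on the minus strand, with the motif starting 23 bases before the start. The Chac1 stretch lies at chr2:119351029-119351076 on the plus strand, with the motif in reverse orientation 193 bases before the start. The Trib3 stretch lies at chr2:152344028-152344057 on the minus strand, with the motif in reverse orientation from base 15 after the start, inside the first exon by that annotation. The bases just after this RefSeq start were not found near the beginning of a GENCODE transcript of Trib3, while those of the other members were. The exon placement of the Trib3 motif thus rests on RefSeq alone. The Ppp1r15a stretch lies at chr7:45526269-45526300 on the minus strand, with the motif starting 12 bases before the start. TGATGNAA was thus in the windows of 3 of the 10 members, against 3.97% of 32851 windows of all genes, and TGACGTCA in 1 of 10, against 1.79%. The ER stress response element, CCAAT and CCACG with 9 bases between them, which ATF6 is known to use, was in the windows of 0 of 10, against 0.12%. Over the 12554 genes tested that had a window, counted per gene, the shares were 2.9% for TGATGNAA, 3.39% for TGACGTCA and 0.16% for the ER stress element. The members were chosen as genes of this pathway, so their shares describe that choice and are no result of the expression data. The 4 sites did not overlap each other, and a match describes letters, not binding. Expression values were mapped by the authors on mm9, so these coordinates belong to the reference sequences alone.

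Kcnj11 itself was at 19.7, 24.7 and 25.4 FPKM (fragments scaled to transcript length and to depth) in the WT libraries, against 3.45, 5.31 and 3.51 in those of bKO. The bKO mean was 17.6% of the WT mean. The steps between low FPKM values put the depth at about 23500000 to 27800000 fragments in WT and 26500000 to 41600000 in bKO. At that depth the members were covered by about 405 to 11528 fragments per library, so counting error was at most 5.0% of any value. The pair of bKO replicates 1 and 3 was closer than any other, with a mean squared difference of 1.73 times counting error against 20.7 times or more for the other pairs. Both were kept as labelled, and a fit in which their mean stood for 1 sample is reported below. The beta cell markers were present in every library, with all 9 above 0. In bulk islets, fewer cells of a type and less RNA per cell cannot be told apart.

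In knockout islets the mean levels of Atf4, Atf5, Ddit3, Chac1 and Asns were 79.7% to 84.7% of those in WT, and the test over all genes called 0 of them. In limma over 15962 genes, 0 of the 10 members were higher and 0 were lower at an adjusted p below 0.05, where 0.0626% of all genes were called higher and 0.132% lower. With unadjusted p below 0.05, 5 members were lower and 0 higher, against 9.17% and 5.05% of all genes. The median log2 difference of the 10 members was -0.22, beside -0.01 for all genes tested. The deposited FPKM of WT and bKO did not overlap for 3 of 10 members, all lower in bKO, where 6.48% of all genes were without overlap and lower and 15.3% without overlap and higher. The log2 differences are of quantile-normalized FPKM plus 1, bKO minus WT, and the intervals are 95%, without adjustment for the number of genes. With bKO replicates 1 and 3 averaged, Atf4, Atf5, Ddit3, Chac1 and Asns differed by -0.21, -0.32, -0.36, -0.32 and -0.28 (limma adjusted p = 0.472 to 0.683). In that fit 0 of 16046 genes were called, Kcnj11 included, so the 0 called members there say nothing particular to the members. The 3 members that hold TGATGNAA, Asns, Chac1 and Trib3, had a median difference of -0.28. The members without it had a median of -0.06 and ran from -0.36 for Ddit3 to 0.16 for Sesn2. Over the 12554 tested genes with a promoter window, those that hold TGATGNAA had a median of -0.02 and the others one of -0.01. In the gene lists described below, holders had medians of 0.19 in other stress targets (3 of 10 genes) and 0.09 in amino acid transport (2 of 6). The medians of holders were -0.30 in amino acid synthesis (2 of 9) and -0.18 in tRNA charging (5 of 9). Genes without it in these lists had medians of 0.17, -0.02, -0.27 and -0.18. A single gene held it in the bZIP, eIF2 and ATF6 and XBP1 lists, at 0.13, 0.01 and -0.31.

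**Figure D1:**
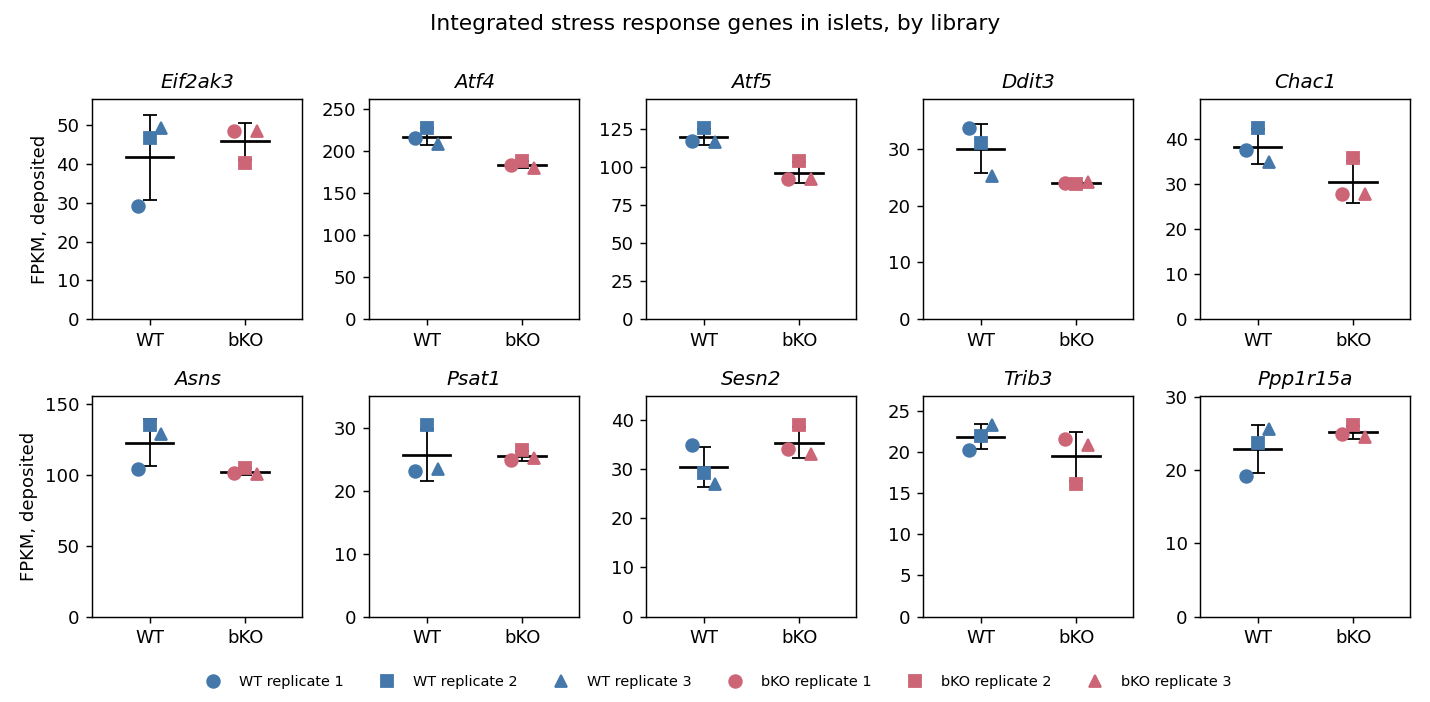
Deposited FPKM (vertical axis, from 0) of each member in the 3 WT and 3 bKO libraries. Points are libraries, with a shape for each replicate number, horizontal bars are means and error bars are SD (n = 3). Atf4, Atf5 and Ddit3 show no overlap between the groups, while Eif2ak3 in WT replicate 1 sits at 29.1 FPKM, below the other 5 libraries.

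Eif2ak3, the kinase PERK that senses unfolded protein in the endoplasmic reticulum, stands at the top of the pathway. It was at 29.1, 46.5 and 49.2 FPKM in the WT libraries, against 48.5, 40.3 and 48.5 in those of bKO. The groups overlapped, and the low WT replicate 1 set most of the WT spread. The mean was 41.6 ± 10.9 FPKM in WT against 45.8 ± 4.76 in bKO (SD, n = 3 each), with a log2 difference of 0.13 (95% interval -0.32 to 0.58, limma adjusted p = 0.767). Without WT replicate 1 the difference was -0.09. Among the 4 eIF2 alpha kinases PERK had the highest message level per length. Eif2ak1, the haem-regulated kinase, was at 19.4 ± 0.331 FPKM in WT against 21.2 ± 0.471 in bKO. Eif2ak2, the kinase PKR that binds double-stranded RNA, was at 12.8 ± 0.800 and 12.8 ± 0.156. Eif2ak4, the amino acid sensor GCN2, was at 6.41 ± 0.447 and 7.09 ± 0.591. None of the 3 passed the test, with limma adjusted p of 0.602, 0.593 and 0.776.

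Atf4 was the most abundant member per length. It was at 215, 228 and 208 FPKM in the WT libraries, against 184, 188 and 180 in those of bKO. Every bKO library lay below every WT library, the lowest WT value being 1.11 times the highest bKO value. The mean was 217 ± 10.02 FPKM in WT against 184 ± 3.77 in bKO (SD, n = 3 each), 84.7% of WT, with a log2 difference of -0.22 (SE 0.06, 95% interval -0.36 to -0.07). The unadjusted p was 0.0104 and the adjusted p 0.205 in limma.

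Atf5, the closest relative of Atf4 and a factor of mitochondrial and proteotoxic stress, was at 117, 126 and 116 FPKM in the WT libraries, against 92.3, 104 and 92.0 in those of bKO. The groups did not overlap, and bKO replicate 2 was the nearest to WT. The mean was 119 ± 5.33 FPKM in WT against 96.1 ± 6.90 in bKO, with a log2 difference of -0.34 (SE 0.07, 95% interval -0.51 to -0.17, limma adjusted p = 0.116). The ratio of Atf5 to Atf4 within a library, which no scaling can change, was 0.542 to 0.558 in WT and 0.503 to 0.554 in bKO, with overlap.

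Ddit3, which encodes CHOP, was at 33.7, 31.1 and 25.2 FPKM in the WT libraries, against 24.0, 23.8 and 24.1 in those of bKO. The groups did not overlap, but WT replicate 3 lay only 1.04 times above the highest bKO library. That gap is within the counting error of up to 5.0% for a Ddit3 value. The mean was 29.97 ± 4.34 FPKM in WT against 24.0 ± 0.175 in bKO, with a log2 difference of -0.36 (SE 0.11, 95% interval -0.63 to -0.09, limma adjusted p = 0.242). The WT libraries carried nearly all of the spread, and leaving out each library in turn gave differences from -0.49 to -0.26. The ratio of Ddit3 to Atf4 was 0.156, 0.136 and 0.121 in WT and 0.131, 0.127 and 0.134 in bKO, so the bKO values lay inside the WT range.

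**Figure D2:**
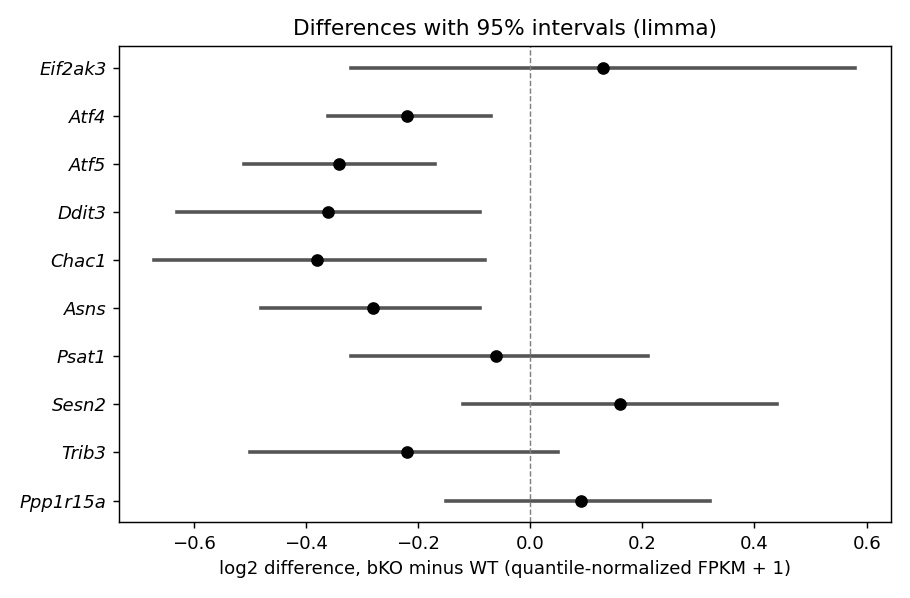
Log2 difference of bKO minus WT (horizontal axis, quantile-normalized FPKM plus 1) for each member, from limma. Points are estimates and bars are 95% intervals without adjustment for the number of genes. The intervals of Atf4, Atf5, Ddit3, Chac1 and Asns lie below 0, while those of the other 5 members include 0, and the adjusted p of all 10 was 0.116 or more.

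Chac1, a glutathione-degrading enzyme and target of ATF4, was at 37.5, 42.6 and 35.1 FPKM in the WT libraries, against 27.9, 35.9 and 27.9 in those of bKO. The groups overlapped, because bKO replicate 2 lay above WT replicate 3. The mean was 38.4 ± 3.83 FPKM in WT against 30.6 ± 4.65 in bKO, with a log2 difference of -0.38 (95% interval -0.67 to -0.08, limma adjusted p = 0.251).

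Asns, which makes asparagine, was at 104, 135 and 129 FPKM in the WT libraries, against 101, 105 and 101 in those of bKO. In deposited FPKM, WT replicate 1 fell inside the bKO range, while after quantile normalization the groups did not overlap. The mean was 123 ± 16.5 FPKM in WT against 102 ± 2.15 in bKO, with a log2 difference of -0.28 (95% interval -0.48 to -0.09, limma adjusted p = 0.207). Without WT replicate 1 the difference was -0.37 (limma adjusted p = 0.0816).

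Psat1, an aminotransferase of serine synthesis, was at 23.2, 30.5 and 23.4 FPKM in the WT libraries, against 24.9, 26.5 and 25.2 in those of bKO. All bKO values lay inside the WT range. The log2 difference was -0.06 (95% interval -0.32 to 0.21, limma adjusted p = 0.828). Sesn2, a leucine sensor that restrains mTORC1, was at 35.01, 29.2 and 27.1 FPKM in the WT libraries, against 34.2, 39.0 and 33.02 in those of bKO. Its groups overlapped through WT replicate 1. The log2 difference was 0.16 (95% interval -0.12 to 0.44, limma adjusted p = 0.569), and it lay between 0.06, without WT replicate 3, and 0.27, without WT replicate 1.

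The feedback genes overlapped between the groups. Trib3, a pseudokinase that restrains ATF4 and CHOP, was at 20.3, 21.9 and 23.3 FPKM in the WT libraries, against 21.6, 16.1 and 20.8 in those of bKO. Only bKO replicate 2 lay outside the WT range, and without it the log2 difference was -0.10 in place of -0.22 (95% interval -0.50 to 0.05, limma adjusted p = 0.432). Ppp1r15a, which encodes GADD34, directs a phosphatase to eIF2 alpha and so ends the response. It was at 19.3, 23.8 and 25.7 FPKM in the WT libraries, against 24.9, 26.2 and 24.5 in those of bKO. The groups overlapped, with a log2 difference of 0.09 (95% interval -0.15 to 0.32, limma adjusted p = 0.699), which was -0.02 without WT replicate 1. The ratio of Ppp1r15a to Atf4 was 0.0895 to 0.123 in WT and 0.136 to 0.140 in bKO, and that of Sesn2 to Atf4 0.128 to 0.163 and 0.183 to 0.208. The ratio of Psat1 to Atf4 was 0.108 to 0.134 in WT and 0.136 to 0.141 in bKO. These 3 of the 9 ratios of members to Atf4 were without overlap and higher in bKO, as were the ratios to Atf4 of 52.5% of all other genes.

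**Figure D3:**
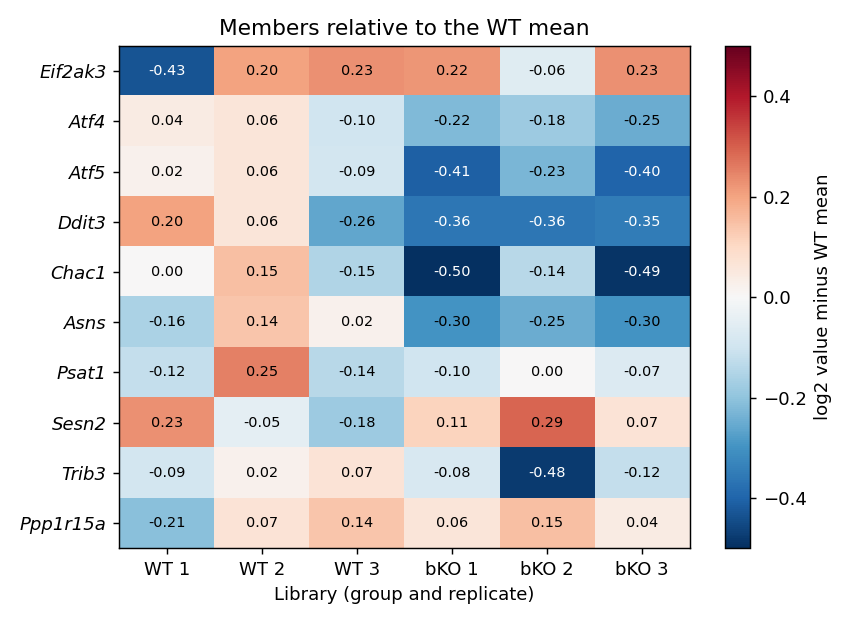
Members (rows) in the 6 libraries (columns) as log2 quantile-normalized FPKM plus 1, minus the WT mean of each gene, with colour from blue (lower) to red (higher). Atf4, Atf5, Ddit3, Chac1 and Asns are below 0 in all 3 bKO libraries, and Chac1 ranges there from -0.50 to -0.14. The columns of bKO replicates 1 and 3 are alike. Replicate 2 of bKO differs from them for Trib3, at -0.48, and also for Chac1 (-0.14), Atf5 (-0.23), Eif2ak3 (-0.06) and Sesn2 (0.29). Replicates 1 and 3 of bKO are there at -0.08 and -0.12, -0.50 and -0.49, -0.41 and -0.40, 0.22 and 0.23, and 0.11 and 0.07.

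By mean level over the 6 libraries the order was Atf4 at 200 FPKM, Asns at 112, Atf5 at 108, Eif2ak3 at 43.7, Chac1 at 34.5, Sesn2 at 32.9, Ddit3 at 27.0, Psat1 at 25.6, Ppp1r15a at 24.1 and Trib3 at 20.7. Atf4 stood above Asns, and Atf5 above Eif2ak3, without overlap in either group. Asns and Atf5 overlapped in both groups, as did Ddit3 and Psat1, and Psat1 and Ppp1r15a. The other 4 neighbours overlapped in 1 of the groups. The order was not the same in each group: Sesn2 lay below Chac1 in WT, at 30.4 and 38.4 FPKM, and above it in bKO, at 35.4 and 30.6. Ddit3 lay above Psat1 and Ppp1r15a in WT, at 29.97 beside 25.7 and 22.9, and below both in bKO, at 24.0 beside 25.5 and 25.2. The coefficient of variation over the 6 libraries ran from 9.66% for Atf4 to 18.0% for Eif2ak3. Over the 6 libraries, on the normalized log2 scale, Atf4 varied most like Atf5 among the members (Pearson r = 0.96), then Ddit3 (0.94), Chac1 (0.92) and Asns (0.77), while Ppp1r15a was at -0.49 and Eif2ak3 at -0.46. These correlations describe 6 libraries that share the genotype contrast and the normalization. Among 12652 other genes with a mean of at least 1 FPKM, those most like Atf4 were Fhdc1, Elovl4, Gnpda1, Map3k19 and Mitd1 (r = 0.992 to 0.995), and those most like Ddit3 were Gbas, 2210404O07Rik, Kcna2, Mettl10 and Laptm5 (r = 0.993 to 0.998).

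Libraries also differed in the summed levels of cell type markers. The summed FPKM of 12 acinar markers, genes of the exocrine enzymes, came to 1355, 16635 and 20002 in the WT libraries, against 26386, 11676 and 26049 in those of bKO. The 9 beta cell markers took 36.3% to 43.7% of all FPKM in WT and 30.8% to 39.0% in bKO. The 6 endothelial markers summed to 109 to 126 FPKM in WT and 160 to 165 in bKO, and the 6 macrophage markers to 54.3 to 76.2 and 42.9 to 50.7. The 5 alpha cell markers summed to 10903 to 12556 FPKM in WT and to 8798, 14011 and 8850 in bKO. No marker of these lists was at 0 in any library. In bKO replicate 2, a single library, the acinar and beta cell values lay inside the WT range, the alpha cell sum above it, the endothelial sum above it and the macrophage sum below it. In that library Atf4, Atf5, Ddit3 and Asns were -0.18, -0.23, -0.36 and -0.25 relative to the WT mean on the log2 scale. On that normalized scale each of these was below every WT library, while Chac1 in bKO replicate 2, at -0.14, was inside the WT range of -0.15 to 0.15. In deposited FPKM, Asns in bKO replicate 2 was at 104.7, above WT replicate 1 at 104.0. The other members in bKO replicate 2 were at -0.48 (Trib3), 0.29 (Sesn2), 0.0 (Psat1), -0.06 (Eif2ak3) and 0.15 (Ppp1r15a) on the log2 scale. The part of acinar, beta, alpha, endothelial and macrophage cells in the result was not tested.

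The genes around the members came from 7 lists drawn from textbook knowledge of the pathway. In limma over all genes, 0 of their 85 tested genes passed in either direction, with 30 lower and 2 higher at an unadjusted p below 0.05, where 9.17% of all genes were lower and 5.05% higher. The lists are described by counts of sign and medians, beside a median of -0.01 for all genes. The 10 genes of amino acid synthesis had a median log2 difference of -0.22, the same as the members, with 8 negative. Cbs, the first enzyme from homocysteine to cysteine, was at 27.7, 34.6 and 33.8 FPKM in the WT libraries, against 21.4, 21.6 and 21.6 in those of bKO. The groups did not overlap, and the log2 difference of -0.60 had a limma adjusted p of 0.0640, which was 0.0289 without WT replicate 1. Pycr1, of proline synthesis, was at 5.405 ± 0.460 FPKM in WT against 3.87 ± 0.304 in bKO, and Mthfd2, of mitochondrial folate metabolism, at 58.5 ± 7.21 and 47.5 ± 0.738 (SD, n = 3 each; limma adjusted p = 0.109 and 0.175). Both were without overlap between the groups, and Gpt2, an alanine aminotransferase, overlapped (log2 difference -0.27).

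Charging of tRNA showed small differences of mostly negative sign. Of 14 genes, 13 were negative with a median of -0.15, and 8 had an unadjusted p below 0.05, all lower, beside 8460 of 15962 negative and 9.17% lower at that p among all genes. Aars, Mars, Lars and Gars, the synthetases for alanine, methionine, leucine and glycine, differed by -0.18, -0.26, -0.22 and -0.19 on the log2 scale (limma adjusted p = 0.188 to 0.255). The TGATGNAA element was in the windows of 5 of the 9 genes of this list that had one, against 2.9% of tested genes, a share that describes the choice of the list. Amino acid transporters were divided in sign, 5 positive and 4 negative of 9, with a median of 0.06. Slc7a5, the light chain of the large neutral amino acid transporter, was at 70.6 ± 0.819 FPKM in WT against 62.1 ± 4.39 in bKO, without overlap (log2 difference -0.21, limma adjusted p = 0.239). Its partner Slc3a2 was at 112 ± 7.98 and 107 ± 0.474, with overlap. Slc7a1, a carrier of cationic amino acids, and Slc1a5, a glutamine carrier, differed by -0.13 and 0.27 on the log2 scale (limma adjusted p = 0.498 and 0.503).

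**Figure D4:**
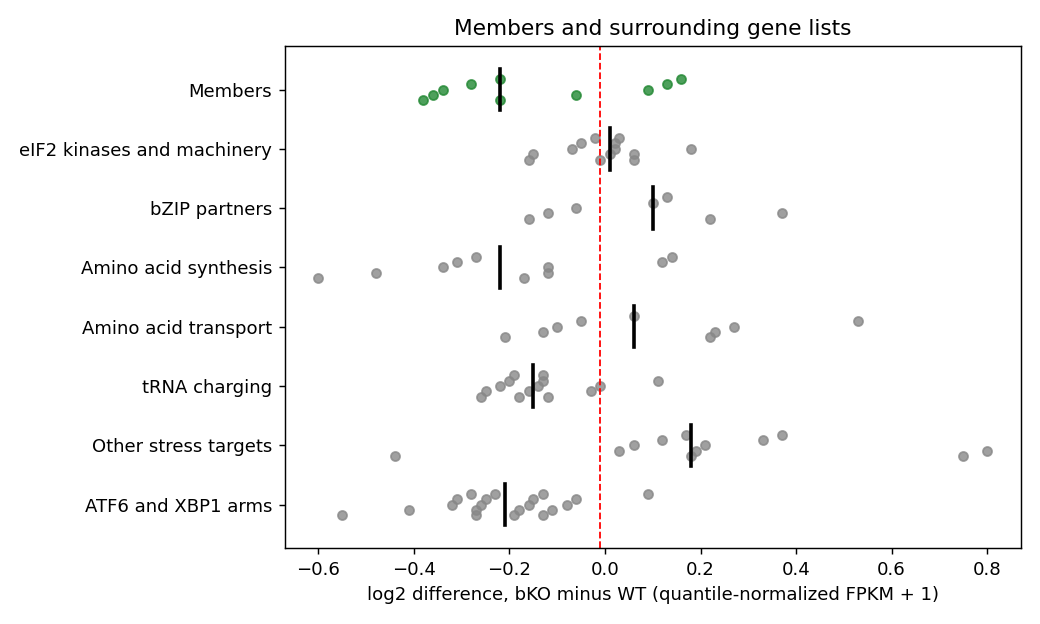
Log2 difference of bKO minus WT (horizontal axis) for each tested gene of the members and of 7 surrounding lists. Points are genes, spread vertically for legibility, black bars are list medians and the dashed line is the median of all genes tested, -0.01. The members, amino acid synthesis, tRNA charging and the ATF6 and XBP1 arms have medians of -0.22, -0.22, -0.15 and -0.21, and other stress targets one of 0.18.

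The translation machinery that the kinases act on lay close to 0. The 13 genes of the other eIF2 kinases, eIF2, its exchange factor eIF2B and regulators had a median of 0.01, with 7 positive and 6 negative. In deposited FPKM, 4 of them (Eif2ak1, Eif2s1, Eif2b1 and Eif2b2) were without overlap and higher in bKO and 0 lower, against 15.3% and 6.48% of all genes. After quantile normalization, Eif2ak1 alone stayed without overlap and higher, while Eif2b3 and Nck1 were without overlap and lower. Ppp1r15b, the constitutive counterpart of Ppp1r15a, was at 24.7 ± 1.26 FPKM in WT against 25.3 ± 0.734 in bKO. The eIF2B subunit genes Eif2b2 and Eif2b3 differed by 0.18 and -0.15 on the log2 scale, and the adaptor Nck1 by -0.16 (limma adjusted p = 0.328, 0.286 and 0.315). Partners of ATF4 among bZIP factors had a median of 0.10 over 7 tested genes. The eighth, Batf3, was at 0 in WT replicate 3 and was not tested. Nfe2l2, the antioxidant factor NRF2, was at 43.1 ± 3.99 FPKM in WT against 51.8 ± 6.48 in bKO, and Cebpa at 6.58 ± 1.85 and 9.18 ± 1.58 (limma adjusted p = 0.408 and 0.455). Cebpg, a dimer partner of ATF4, and Nfil3, a repressor, had log2 differences of -0.16 and -0.12.

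Among 12 other stress targets 11 were positive and the median was 0.18, while 3 of the 10 members and 7502 of the 15962 genes tested were positive. An unadjusted p below 0.05 was reached by 1 of them in each direction. Txnip, a glucose-induced inhibitor of thioredoxin, was at 34.9, 52.1 and 46.7 FPKM in the WT libraries, against 73.1, 84.6 and 72.1 in those of bKO, without overlap (log2 difference 0.75, limma adjusted p = 0.101). The single negative gene, Vldlr, a lipoprotein receptor induced by ATF4, was at 12.2, 13.7 and 13.0 FPKM in the WT libraries, against 9.53, 10.4 and 9.52 in those of bKO (log2 difference -0.44, limma adjusted p = 0.0844). Bcl2l11, the pro-apoptotic BIM, was at 4.87 ± 0.211 and 6.00 ± 0.584 FPKM without overlap, and Tnfrsf10b, a death receptor, at 2.94 ± 1.21 and 4.22 ± 0.563 with overlap (limma adjusted p = 0.391 and 0.520). Nupr1, a stress protein chosen after its values were seen, was at 340, 1575 and 2338 FPKM in the WT libraries, against 2470, 1141 and 2489 in those of bKO. Ddit4, an inhibitor of mTORC1, Eif4ebp1, a repressor of translation initiation, the secreted factors Gdf15 and Stc2, and the oxidase Ero1l were also looked at after their values were seen. Like Nupr1, these 5 were lowest in WT replicate 1 and next lowest in bKO replicate 2, the same as the acinar sums given above, and Stc2 followed the acinar order over all 6 libraries. The part of acinar cells in these 6 of the 12 genes was not tested. Among the members, Eif2ak3 had the same 2 lowest libraries, and the part of acinar cells in its values was not tested either. So did 4 of 13 genes of the eIF2 list, 3 of 10 of amino acid synthesis and 2 of 9 of amino acid transport. It also held for 3 of 14 genes of tRNA charging, 1 of 20 of the ATF6 and XBP1 arms and 0 of 8 bZIP partners. Cth, of amino acid synthesis, followed the acinar order over all 6 libraries, as Stc2 did. The share among all genes was not counted, so whether these counts are unusual cannot be said.

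The ATF6 and XBP1 arms are the branches of the unfolded protein response beside PERK. Of 20 genes, 19 were negative with a median of -0.21, against 8460 of 15962 among all genes. An unadjusted p below 0.05 was reached by 13, all lower, against 9.17% of all genes, and 0 passed the adjusted test. Manf, Pdia6, Herpud1 and Calr differed by -0.32, -0.41, -0.31 and -0.27 on the log2 scale, each without overlap between the groups (limma adjusted p = 0.107 to 0.163). These encode a secreted survival factor, a disulfide isomerase, a factor of protein degradation and a calcium-binding chaperone of the endoplasmic reticulum. The ER stress response element was in the windows of 7 of the 17 genes of this list that had one, against 0.16% of tested genes. As the list came from textbook knowledge of these arms, that share describes the choice of genes and is no result of the expression data. Pdia6 and Sdf2l1, a chaperone cofactor with a log2 difference of -0.55, passed without WT replicate 1 (limma adjusted p = 0.0417 and 0.0289).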

How the data were processed

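RNA sequencing values of 3 WT and 3 bKO islet libraries were used. The deposited values are FPKM per gene. Per the design text and labels' protocols, a service provider mapped trimmed reads to the mouse genome and ran Cufflinks on a fixed annotation, and the build was mm9 (the submitters' processing notes). Aligner and tool versions: not given in the sources used here. Although that text describes a log transform, quantile normalization and a filter on 0, the values as deposited are linear, and 585 genes are at 0 in at least 1 library. A row of column medians and a blank row were left out. Groups and replicate numbers came from the titles.

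Genes at 0 in any library were removed, leaving 15962. Values were transformed as log2(FPKM + 1), quantile normalized and tested with limma 3.58.1 in R 4.3.3 (eBayes with trend, two-sided), with Benjamini-Hochberg adjustment over all genes and a threshold of 0.05. The steps were tested on simulated data with planted differences larger than that of any member. That test does not show whether differences of the members' size can be detected. Fragments were estimated from the spacing of low values in single-transcript genes, 61.2% to 68.0% of which lay within 0.1 of a whole number, using GENCODE lengths. Of the members, 4 (Atf4, Atf5, Ddit3 and Psat1) list several transcripts with a single value. Intervals from depth cover counting error only. Tried as alternatives were another pseudocount (0.1), unnormalized values, scaling by median of ratios, keeping genes at 0, requiring a mean of 1 FPKM, eBayes with no trend, blocking on replicate number, omission of each library and averaging of bKO replicates 1 and 3.

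Named genes were the members, Kcnj11, up to 4 genes per list with the smallest unadjusted p and a mean of at least 1 FPKM, and the 5 genes most like Atf4 and most like Ddit3. The other eIF2 kinases, Ppp1r15b, Batf3, Nupr1, Ddit4, Eif4ebp1, Gdf15, Stc2, Ero1l and Sdf2l1 were added after their values were seen. The members and lists were chosen with earlier results of these data known. Tables and figures were made in Python 3.11.15 with pandas 2.3.3, numpy 2.4.6 and matplotlib 3.10.9.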

Additional observations from a re-analysis of the deposited data

How the results depend on the processing

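Under all 14 alternatives 0 members were called in either direction, and the median member difference stayed between -0.25 and -0.17. With the replicate block, without bKO replicate 1 or 3, and with bKO replicates 1 and 3 averaged, 0 of all genes were called. In those fits the 0 called members say nothing particular to the members. Atf4, Atf5, Ddit3, Trib3, Chac1 and Asns kept a negative sign throughout, with limma adjusted p from 0.0793 to 0.735, and Sesn2 a positive sign. Signs turned for Psat1 without quantile normalization (0.0014) and without WT replicate 2 (0.07), and for Eif2ak3 (-0.09) and Ppp1r15a (-0.02) without WT replicate 1. With each library left out in turn, Psat1 lay between -0.13 and 0.07, Eif2ak3 between -0.09 and 0.24 and Ppp1r15a between -0.02 and 0.15. The cause was not tested. Over all genes, 10 were higher and 21 lower. Without quantile normalization 19 were higher and 20 lower, and the lower share of calls went from 67.7% to 51.3%. The labels do not say what libraries with the same replicate number share. The correlations of same-numbered deviations from the group means were -0.20, 0.07 and 0.30, beside 0.31 for WT replicate 3 with bKO replicate 1. With 3 libraries per group and bKO replicates 1 and 3 nearly alike, these cannot tell whether the numbers mark a pairing. Blocking on that number gave 0 higher and 0 lower (replicate block). With bKO replicates 1 and 3 averaged the counts were also 0 and 0. Leaving out each library gave 0 to 23 higher and 0 to 27 lower. The counts were 23 and 27 without WT replicate 1, 0 and 3 without WT replicate 2, 0 and 1 without WT replicate 3, 3 and 6 without bKO replicate 2, and 0 and 0 without bKO replicate 1 or 3. In the lists, leaving out a library gave 0 to 1 lower gene of amino acid synthesis (Cbs) and 0 to 2 of the ATF6 and XBP1 arms (Pdia6 and Sdf2l1), the calls coming without WT replicate 1. The other 12 list counts were 0 under every alternative. Depth limits Ddit3 most among the members, with a counting error of up to 5.0%.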
